A study of Mus musculus with 4 samples.

Results

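10 genes that encode ion channels linked to nociception were followed through m6A peaks of mouse spinal cord. They were the transient receptor potential (TRP) channels *Trpc1*, *Trpm3*, *Trpm7* and *Trpv2*, the Piezo channels *Piezo1* and *Piezo2*, the acid-sensing ion channels *Asic1* and *Asic2*, and the ATP-gated P2X receptors *P2rx4* and *P2rx7*. They were chosen by name, as families with known roles in pain, and with earlier results of these data known. A gene had a peak if a row of a deposited table carried its name. 7 of the 10 genes had at least 1 row and 3 had none, among 13558 gene names in the tables. They held 17 of the 33556 peaks of the CCI list, 18 of the 34406 peaks of the sham list, and 1 of the 4812 rows of the table of differential peaks.

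The tissue was spinal cord of male C57BL/6J mice, 6 to 8 weeks of age, taken 7 days after surgery. In chronic constriction injury (CCI), silk thread was tied loosely around the sciatic nerve, and sham mice had the same operation with no thread tied. MeRIP-seq was used, in which fragments of poly(A) RNA are captured with an antibody against m6A (IP) and set against the same RNA before capture (input). There was 1 IP and 1 input library for CCI and for sham, the number of mice behind each library is not given in the sources used here, and no comparison between CCI and sham could be tested. The value of each peak was the fold enrichment of IP over input, and its p-value (peak p) came from the authors' test of IP against input within 1 group, not of CCI against sham. No read counts stand in the tables, and the depth of the libraries is therefore unknown.

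TRP channels are cation channels that open to temperature, chemicals or receptor signalling. Piezo channels open when the membrane is stretched, acid-sensing channels open to protons, and P2X receptors open to extracellular ATP, which injured cells release. In the spinal cord, P2X4 and P2X7 are known mainly from microglia, and acid-sensing subunits mainly from neurons. m6A is placed on adenosines within short motifs such as GGACU, most often near the stop codon and in the 3′-UTR, and affects splicing, stability and translation of the RNA.

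The labelled tissue was checked by its defining markers. All 7 markers of spinal neurons and all 5 each of oligodendrocytes, astrocytes and microglia had a peak in both lists, as did 5 of 6 spinal Hox genes, and none of 3 skeletal muscle genes had one. Of 10 markers of dorsal root ganglion neurons, 2 had a peak in CCI and 6 in sham, and of 3 Schwann cell markers 2 had one in each list. These marker counts are to be read against the share over all protein-coding RefSeq symbols, 49.9% in CCI and 51.5% in sham. A peak shows that the RNA was captured, not how much of it there was. In bulk tissue, fewer cells of a type and less RNA per cell cannot be told apart.

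Among the 10 channel genes, *Trpc1*, *Trpm3*, *Piezo1*, *Piezo2*, *Asic1*, *Asic2* and *P2rx7* had a peak in CCI, and the same genes without *Trpc1* had one in sham. Thus 7 of 10 in CCI compares with 49.9% of all protein-coding RefSeq symbols, and 6 of 10 in sham with 51.5%. *Trpm7*, a channel fused to a kinase, *Trpv2*, a relative of the capsaicin receptor, and *P2rx4* had no row. Within their RefSeq spans (GRCm38.p6, chr2:126791558-126876261, chr11:62574486-62600305 and chr5:122707518-122729739) and 1000 bases on either side, no row of any other gene name was found either. A missing peak does not separate RNA without m6A from RNA too low to call, since no read counts were given.

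By their deposited labels, the peaks of these genes lay mostly in the 3′-UTR. In CCI 14 of 17 peaks did (82.4%, 95% Wilson interval 59.0% to 93.8%), compared with 49.8% of all CCI peaks, and in sham 13 of 18 (72.2%, 49.1% to 87.5%), compared with 48.9%. These intervals cover counting error only, and peaks of the same gene are not independent. The label is doubtful for some of them, such as a *Piezo2* peak 97924 bases from the transcript end in CCI and 97954 in sham. The sham count also holds *Piezo1* peaks that overlap each other. The median fold enrichment was 8.34 in CCI, with a range of 1.67 to 31.3, and 7.56 in sham, with a range of 1.63 to 22.1. Over all peaks the medians were 5.73 and 5.70. Rows of other names over the same bases are left out of these values. Among them is a sham row of 75.5 over the first exon of *Asic2*, named *5530401A14Rik* and described below. The plot of the peaks by gene shows that the same gene could hold both a strong and a weak peak.

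**Figure D1:**
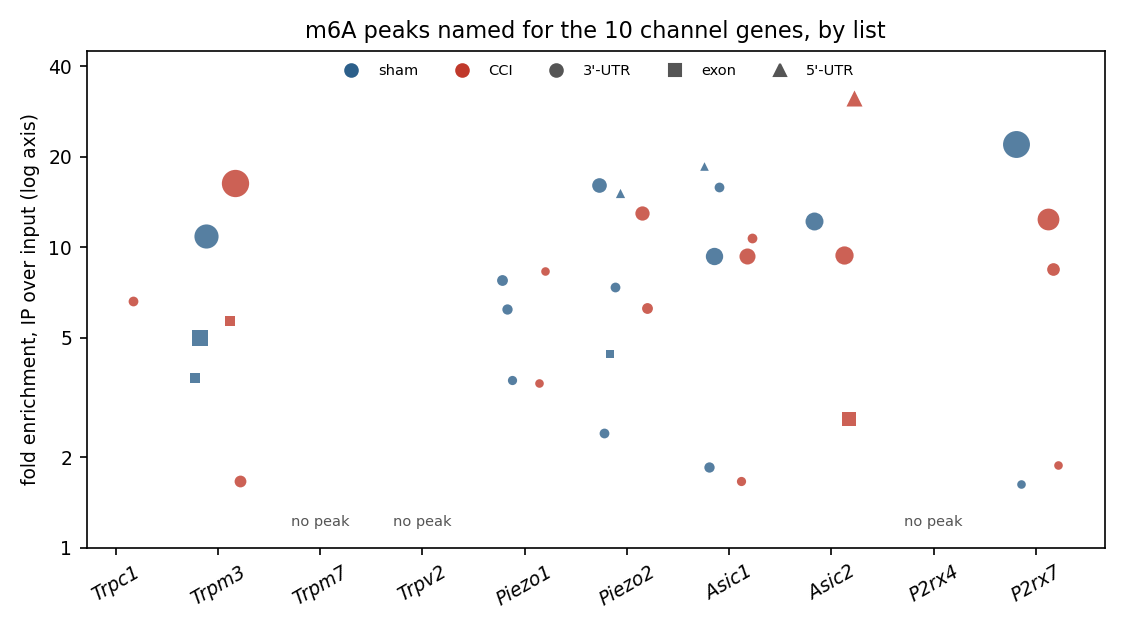
Fold enrichment of IP over input (log axis) of every m6A peak named for the 10 channel genes, sham in blue and CCI in red, with the shape giving the region and the size growing with the length of the peak; each point is 1 peak from 1 pair of libraries. The highest CCI point is the 5′-UTR peak of *Asic2* at 31.3 and the highest sham point is *P2rx7* at 22.1, while *Trpm7*, *Trpv2* and *P2rx4* have no peak. Rows of other names are not drawn, so the sham peak of 75.5 over the same *Asic2* bases, named *5530401A14Rik*, is absent.

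The lists were then compared peak by peak, to ask how the marked stretches of these channels differed between CCI and sham. 13 of the 17 CCI peaks overlapped a sham peak by at least 1 bp of exonic blocks and 4 did not, beside 12.3% of all CCI peaks without a partner. Of the 18 sham peaks 11 had a CCI partner and 7 did not, beside 16.1% of all sham peaks. All 7 of the sham peaks without a partner, and 2 of the 4 CCI ones, had a peak p above 1e-05. With or without a partner, 9 of the 18 sham peaks and 4 of the 17 CCI peaks had such a p. Over all peaks the share was 19.1% in sham and 18.6% in CCI. Among all peaks with such a p, 41.1% of CCI peaks and 56.1% of sham peaks had no partner, while among stronger peaks it was 5.69% and 6.72%. Most peaks of these genes found in 1 list only were therefore of the weak kind that often went unmatched across the whole series.

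11 pairs of best mutual partners were formed in 5 genes, with 8 lower and 3 higher in CCI, beside 47.8% of all pairs lower. Their median log2 ratio of fold enrichment, CCI over sham, was -0.24, next to 0.03 for all 27380 pairs. The middle range of all pairs, from the 25th to the 75th percentile, ran from -0.37 to 0.43, and the central 95% ran from -1.59 to 1.75. 1 of the 11 pairs was past 2-fold, that is, a log2 ratio of at least 1 in either direction, beside 15.8% of all pairs. That pair lay in the first exon of *Asic2*. None of the 11 ratios lay outside the central 95% of all pairs, which is shown in the plot of ratios.

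**Figure D2:**
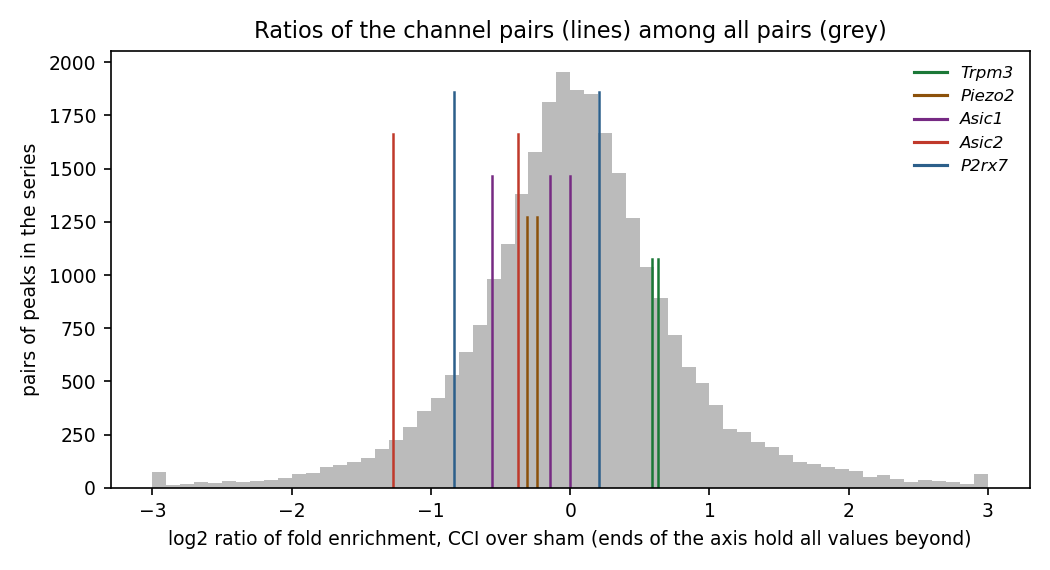
Number of peak pairs in the whole series (grey bars) by the log2 ratio of fold enrichment, CCI over sham, with a coloured line for each of the 11 pairs of the channel genes; line height only separates the genes. The channel pairs run from -1.27 (*Asic2*, first exon) to 0.63 (*Trpm3*), and all lie within the body of the grey bars.

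Within the TRP channels, *Trpc1* and *Trpm3* carried the peaks. *Trpc1* (ENSMUSG00000032839) encodes a subunit of receptor-operated cation channels. It had 1 peak in CCI and none in sham. The CCI peak covered 120 bp of the 3′-UTR at chr9:95706786-95706905, 1704 bases from the transcript end, with a fold enrichment of 6.60 (peak p of 1e-08), and ranked at percentile 55.4 of the CCI list. The lncRNA *Gm39407* begins 3 bases beyond it in RefSeq. No sham row under any name overlapped the peak. This was the strongest of the CCI peaks without a partner by fold enrichment, apart from 1 weak *Piezo1* peak.

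*Trpm3* (ENSMUSG00000052387), a heat- and steroid-sensitive channel of sensory neurons that is also present in the brain, was the gene with higher values in CCI. A peak of 181 bp in exon 17 of 25 (chr19:22904757-22910169) had the same borders in both lists. Its fold enrichment was 5.69 in CCI (peak p of 1.6e-30) and 3.67 in sham (peak p of 1e-23), a log2 ratio of 0.63 at percentile 82.8 of all pairs. The last exon carried a long stretch of m6A. In CCI 1 peak of 1918 bp (chr19:22986978-22988895) had a fold enrichment of 16.4. In sham the same stretch was split into a peak of 1469 bp at 10.9 (chr19:22987427-22988895) and a peak of 480 bp at 4.97 (chr19:22986858-22987337).

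The longest stretches of *Trpm3* thus gave a log2 ratio of 0.59 at percentile 81.4. With the sham peaks joined and weighted by length, sham held 9.44 over 1949 bp and the log2 ratio was 0.80. No spread of joined peaks over the series is given here to set beside it. The long CCI peak was the 1 among the 17 that overlapped at least 2 sham peaks, beside 11.1% of all CCI peaks. A further CCI peak of 241 bp (chr19:22989015-22989255) was weak, with a fold enrichment of 1.67 (peak p of 7.8e-08), and had no sham partner. The lncRNA *C330002G04Rik* overlaps these 4 last-exon peaks in RefSeq, so their reads could come from either gene. Both *Trpm3* stretches were higher in CCI, and both ratios lay inside the central 95% of all pairs.

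**Figure D3:**
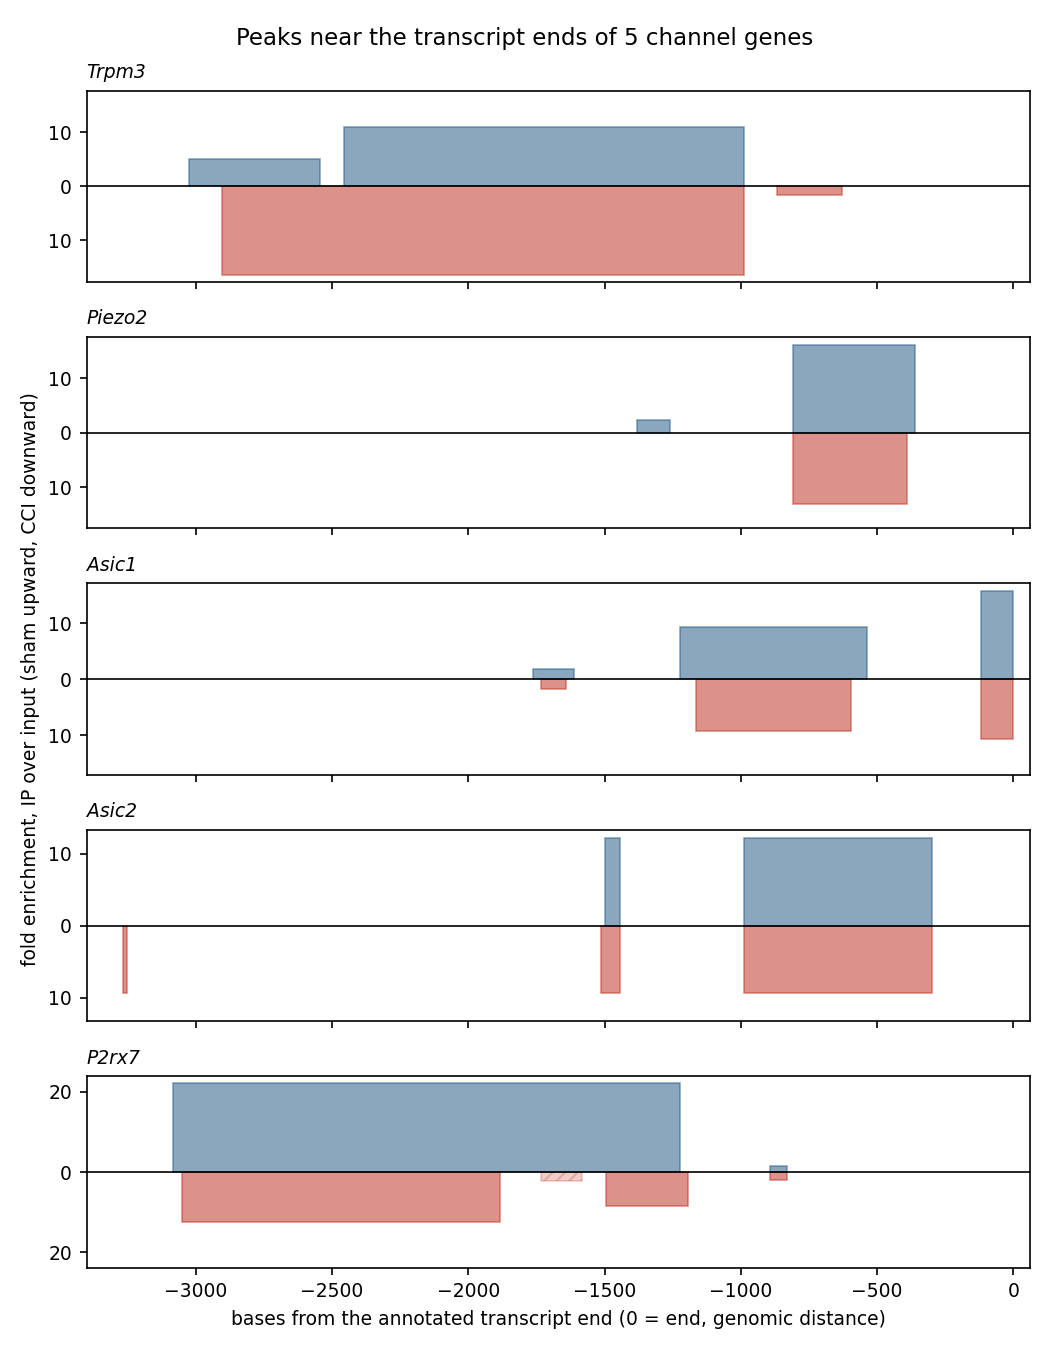
Peaks near the transcript ends of 5 channel genes, with fold enrichment of IP over input upward for sham (blue) and downward for CCI (red) against the genomic distance in bases from the annotated end of the transcript; the hatched bar is a CCI row named *Mir8115*. *Trpm3* shows 1 CCI peak of 1918 bp opposite 2 sham peaks, and *P2rx7* shows 1 sham peak of 1860 bp opposite 3 CCI peaks.

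The Piezo channels differed from each other in how well their peaks were matched. *Piezo1* (ENSMUSG00000014444), the stretch-activated channel of vessels and many other tissues, had 2 CCI peaks and 3 sham peaks, and none overlapped between the lists. The CCI peaks were 61 bp at chr8:122483463-122483523 with a fold enrichment of 3.52 (peak p of 0.0071) and 60 bp at chr8:122483840-122483899 with 8.34 (peak p of 0.0079). The sham peaks were 181 bp at chr8:122482835-122483015 with 7.75 (peak p of 6.2e-05), 150 bp at chr8:122482855-122483004 with 6.20 (peak p of 0.00049), and 91 bp in 2 blocks at chr8:122485898-122486338 with 3.62 (peak p of 0.00026). All 5 were short and had a p above 1e-05. The first and second of the sham peaks overlap each other and also lie within *Ctu2* in RefSeq, so they stand for 1 stretch whose gene is uncertain.

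*Piezo2* (ENSMUSG00000041482), the channel of light touch and proprioception, had a strong 3′-UTR peak in both lists. It covered 420 bp in CCI with a fold enrichment of 13 (peak p of 6.3e-27) and 450 bp in sham with 16.1 (peak p of 2e-41), ending at the same base (chr18:63010573-63011022 in sham). The log2 ratio was -0.31, at percentile 28.1 of all pairs. A second pair, named 3′-UTR in the tables although it lies 97924 bases from the transcript end in CCI, had 6.25 in CCI (peak p of 0.00012) and 7.36 in sham (peak p of 0.00011), a log2 ratio of -0.24. Both *Piezo2* pairs were slightly lower in CCI and within the middle range of all pairs.

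3 more *Piezo2* peaks were found in sham only. They were a 3′-UTR peak of 121 bp at 2.41 (peak p of 0.00012), a peak of 61 bp in exon 19 of 54 at 4.42 (peak p of 0.001), and a 5′-UTR peak of 90 bp at 15.1 (peak p of 0.00035). All 3 had a p above 1e-05, and the 5′-UTR peak had a high fold enrichment over a short stretch. *Piezo2* is best known from dorsal root ganglion neurons, of whose 10 markers 6 had a peak in sham and 2 in CCI. Over all protein-coding RefSeq symbols the shares were 51.5% in sham and 49.9% in CCI. The part of these neurons in this result was not tested.

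*Asic1* and *Asic2* encode the main subunits of the proton-gated channels of central neurons. *Asic1* (ENSMUSG00000023017) had 3 pairs of peaks in the 3′-UTR, more than any other gene of the set. The central peak had a fold enrichment of 9.31 over 568 bp in CCI (chr15:99699963-99700530) and 9.33 over 688 bp in sham (chr15:99699903-99700590), a ratio of 0.998. The peak at the very end of the transcript, 120 bp with the same borders in both lists (chr15:99701008-99701127), had 10.7 in CCI (peak p of 1.3e-18) and 15.8 in sham (peak p of 1e-29), a log2 ratio of -0.56 at percentile 17.2. So within 1 UTR 1 peak was level and its neighbour was lower in CCI.

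The weakest *Asic1* pair had 1.67 over 91 bp in CCI (peak p of 1.3e-06) and 1.85 over 151 bp in sham (peak p of 6.3e-11), a log2 ratio of -0.15. A 5′-UTR peak of 61 bp, 30 bases from the transcript start (chr15:99670748-99670808), was found in sham only, with a fold enrichment of 18.6 (peak p of 4.2e-05). Like the sham-only 5′-UTR peak of *Piezo2*, it combined a high fold enrichment with a short length and a weak p.

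*Asic2* (ENSMUSG00000020704) was the 1 gene of the 7 with a row in the table of differential peaks, beside 25.3% of the gene names of either list. That row covers the 3′-UTR (chr11:80880467-80883436, 776 bp, fold enrichment 10.4 over both groups). In the lists the peak held 9.41 over 776 bp in CCI and 12.2 over 746 bp in sham, a log2 ratio of -0.38 at percentile 24.8 of all pairs. The map of the transcript ends shows that most of its bases were shared, with 1 further block of 15 bp in CCI.

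The largest difference of the set was at the other end of *Asic2*, and the names in the tables hide it. By name, *Asic2* had first-exon peaks in CCI only, namely 329 bp in exon 1 of 10 at 2.67 (peak p of 2.5e-21, chr11:81151883-81152211) and 567 bp of the 5′-UTR at 31.3 (peak p of 2e-46, chr11:81152331-81152897). In sham, a single row named *5530401A14Rik* covered the same stretch, with blocks at chr11:81151883-81153321 (1439 bp) and chr11:81967630-81967712 (83 bp). Its fold enrichment was 75.5 (peak p of 1e-134), at percentile 98.0 of the sham list. CCI also had a row of that name, with blocks of 365 bp (chr11:81152957-81153321) and 83 bp at 8.21 (peak p of 6.3e-98). *5530401A14Rik* lies on the other strand at chr11:81860677-81894582 in RefSeq and touches neither block, whereas the RefSeq span of *Asic2* (chr11:80880163-81968396) contains both.

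Matched by position, the 5′-UTR peak of *Asic2* had 31.3 in CCI and 75.5 in sham, a log2 ratio of -1.27 at percentile 4.33 of all pairs. The sham peak was 1522 bp long and the CCI peak 567 bp. With the 3 CCI peaks joined, CCI held a length-weighted fold enrichment of 16.6 over 1344 bp, and the log2 ratio was -2.19. The spread of all pairs is for unjoined peaks, so the joined value has no background beside it. The table of differential peaks also had a row over this stretch, named *5530401A14Rik* (fold enrichment 43.6 over both groups). Where only peaks whose named genes share a strand were matched, this pair was lost and none of the remaining pairs was past 2-fold. Of all 27380 pairs, 252 (0.92%) carried different gene names in the lists.

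The peaks reached over 1 of 2 promoter windows of *Asic2*, from 250 bases before to 50 after the RefSeq start at chr11:81152903. A second RefSeq window of the gene, with its start at chr11:81968396, was overlapped by no peak and was not searched. The sham peak covered 300 bases of the window (chr11:81152854-81153153), while in CCI 44 bases were covered by the *Asic2* row and 197 by the *5530401A14Rik* row. GGACT, the DNA form of the m6A motif, was searched on the strand of *Asic2*, and 2 matches were found. They are shown since 1 lies in the gap between the CCI peaks and the other in a peak of both lists, with the motif in capitals (RefSeq, GRCm38.p6, minus strand, 5′ to 3′).
*Asic2* match in the CCI gap, chr11:81152939-81152967: gtggggtccccgGGACTggccaaaccagg
*Asic2* match in both lists, chr11:81152858-81152886: tccgtgcaggggGGACTcatctcagggtc
The first match was inside the sham peak and 2 bases outside the nearest CCI peak, and the second was inside the sham peak and the CCI peak of 31.3. The first lies before the RefSeq start at chr11:81152903, so RNA from that start does not hold it. The transcript named for the *Asic2* peaks starts further out, at chr11:81153321, and does hold it. No match of GGACA or GGACC was found in the window. GGACT was found in 26.1% of all 32851 RefSeq promoter windows, GGACA in 28.2% and GGACC in 26.1%. A match describes the sequence and does not show which base was modified. Peak borders come from captured fragments, so a border 2 bases away does not show that the match was unmarked in CCI.

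**Figure D4:**
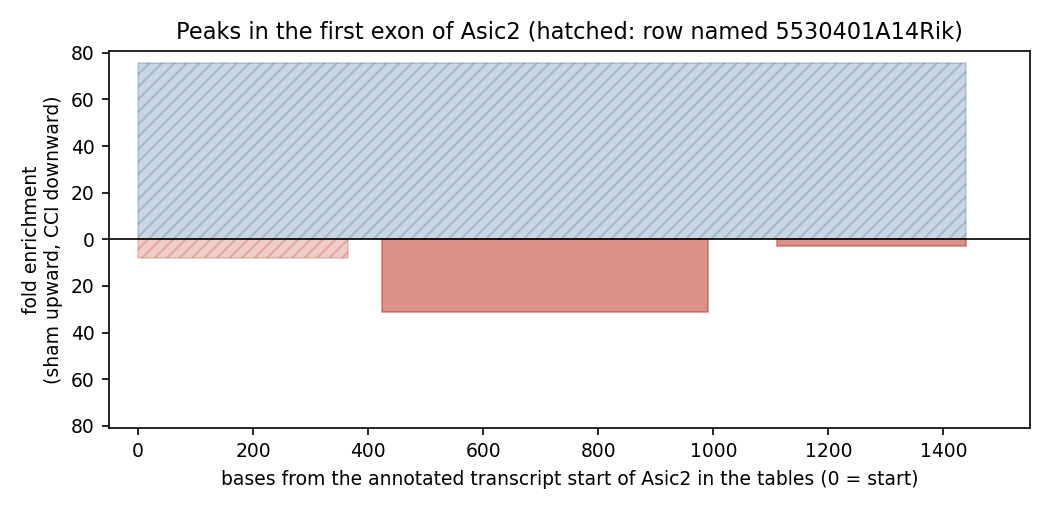
Peaks over the first exon of *Asic2* by distance in bases from the transcript start used in the tables, with fold enrichment of IP over input upward for sham (blue) and downward for CCI (red); hatched bars are rows named *5530401A14Rik*. A single sham peak of 75.5 spans the stretch that holds 3 CCI peaks of 8.21, 31.3 and 2.67.

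*P2rx7* (ENSMUSG00000029468), the receptor for high ATP that drives release of interleukin 1β from microglia, carried the longest sham peak of the set. In sham 1 peak of 1860 bp in the 3′-UTR (chr5:122681208-122683067) had a fold enrichment of 22.1 (peak p of 1e-115). In CCI this stretch was split into 1170 bp at 12.4 (peak p of 2e-90, chr5:122681238-122682407), 151 bp at 2.29 (peak p of 3.3e-05, chr5:122682557-122682707, named *Mir8115*), and 301 bp at 8.43 (peak p of 6.3e-42, chr5:122682797-122683097). This was the 1 sham peak among the 18 that overlapped at least 2 CCI peaks, beside 12.1% of all sham peaks.

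The main *P2rx7* pair had a log2 ratio of -0.83, at percentile 10.1 of all pairs. With the 3 CCI peaks joined, CCI held 10.7 over 1622 bp and the log2 ratio was -1.04, again with no spread of joined peaks beside it. A weak peak of 61 bp nearer the end (chr5:122683397-122683457) had the same borders in both lists, with 1.88 in CCI (peak p of 0.0025) and 1.63 in sham (peak p of 0.0062), a log2 ratio of 0.21. The long peak was thus lower and more broken up in CCI, and the short one was not lower.

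The middle CCI peak of this stretch was named for a miRNA gene within the 3′-UTR of *P2rx7*, on the same strand. The mature miRNA lies at chr5:122682664-122682685 within a hairpin at chr5:122682597-122682715. It is shown because its name stands in the CCI list only, with the seed, bases 2 to 8, in capitals (RefSeq, GRCm38.p6).
mmu-miR-8115: cCGCAAUAgcaacaagggcucu
Since poly(A) RNA was captured and the sham peak over the same bases carried the name *P2rx7*, the row cannot be assigned to the miRNA rather than to the 3′-UTR.

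Across the members, 3 of the 11 pairs had identical borders in both lists and so were free of differences in length. They were the exon 17 peak of *Trpm3* (log2 ratio 0.63), the end peak of *Asic1* (-0.56) and the short peak of *P2rx7* (0.21). By gene, *Trpm3* was higher in CCI in both of its pairs, *Piezo2* and *Asic2* were lower in both of theirs, *Asic1* was lower in all 3, if only by a ratio of 0.998 in 1 of them, and *P2rx7* was lower in 1 and higher in 1. With 1 library pair per group, none of these ratios can be set against a spread between animals.

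Other genes of the same families were taken from a list of 61 channel and purinergic genes. Of these, 30 had a peak in CCI, 31 in sham, 28 in both and 28 in neither. Over all protein-coding RefSeq symbols the share was 49.9% in CCI and 51.5% in sham. The counts of each family below are to be read against the same shares. They formed 56 pairs, with 34 higher and 22 lower in CCI, beside 47.8% of all pairs lower. Their median log2 ratio was 0.16, and 9 pairs were past 2-fold, a count to be read against the 15.8% of all pairs. Of the 33 genes with a peak in either list, 7 had a row in the table of differential peaks, to be read against 25.3% of all gene names with a peak. For the 11 pairs above that median was -0.24. The plot of the highest peaks gives each gene.

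**Figure D5:**
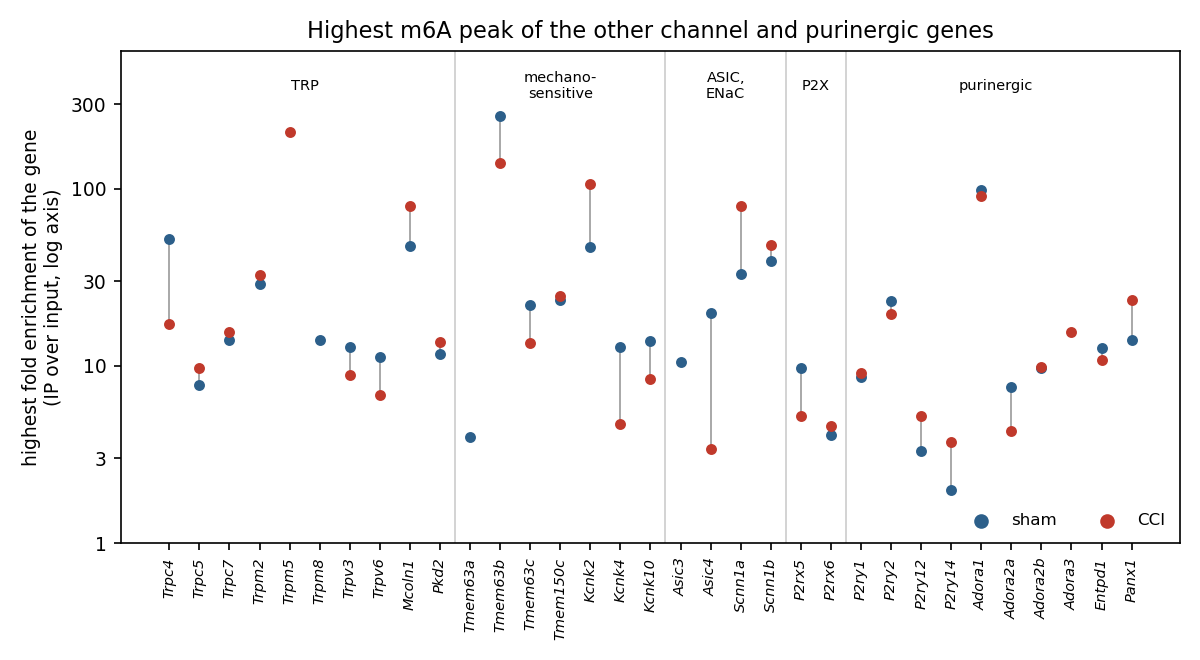
Highest fold enrichment of IP over input (log axis) of each of the 33 genes of the wider list that had a peak, sham in blue and CCI in red, joined by a line where both lists had one; highest peaks of a gene need not be at the same place. Values run from 1.99 (*P2ry14*, sham) to 256 (*Tmem63b*, sham).

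Among 24 other TRP channels, 9 had a peak in each list and 14 in neither, and the heat and irritant receptors *Trpv1*, *Trpa1* and *Trpv4* were among those without one. *Trpc4*, a relative of *Trpc1*, had a 3′-UTR peak of 17.2 over 270 bp in CCI and 52.0 over 570 bp in sham (log2 ratio -1.60). This pair lay over a row of the table of differential peaks. A short and weak exon pair of *Trpc4* went in the opposite direction (1.84). It had 13 over 90 bp in CCI (peak p of 0.00028) and 3.62 over 150 bp in sham (peak p of 0.00026). *Mcoln1*, a lysosomal channel, had 79.9 in CCI and 47.5 in sham in its 3′-UTR (0.75), and exon pairs with log2 ratios of 0.63 and -0.11. *Trpm5* had the highest CCI value of the family, 210, and no sham row, but RefSeq places those bases in *Tssc4*, under whose name the overlapping sham peak had 208. As in the first exon of *Asic2*, a stretch found in 1 list only by name was found in both by position.

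Among 9 other mechanosensitive channels, 6 had a peak in CCI and 7 in sham, beside 49.9% and 51.5% of all protein-coding symbols. Of the 7 with a peak in either list, 4 had a row in the table of differential peaks, beside 25.3% of all gene names. 3 of these were *Tmem63a*, *Tmem63b* and *Tmem63c*, relatives of the osmosensitive OSCA channels of plants. *Tmem63a* had a 5′-UTR peak in sham only, at 3.98 (peak p of 2.3e-09). *Tmem63b* had a 3′-UTR peak of 139 in CCI and 256 in sham (log2 ratio -0.88), and an exon pair of 12.2 and 4.49 (1.44). The pair over its differential row was weak, with 1.66 in CCI and 1.31 in sham (0.34). *Tmem63c* had 13.5 in CCI and 22.1 in sham at its highest peak (-0.71) and 3.46 and 2.08 (0.73) at the pair over its differential row. Its remaining pair had 3.73 in CCI and 5.94 in sham (-0.67). The fourth, *Tmem150c*, had 24.8 in CCI and 22.2 in sham (0.16) at the pair over its differential row. *Kcnk2*, the stretch-activated potassium channel TREK-1, had a 5′-UTR peak of 106 over 810 bp in CCI and 46.6 over 510 bp in sham (1.19), where RefSeq also places *A430027H14Rik*. These peaks overlapped only in part (chr1:189343063-189344030 in CCI and chr1:189340086-189343542 in sham). The other 5′-UTR pair of *Kcnk2* went the other way, with 20.8 and 33.7 (-0.70), an exon pair was level at 17.2 and 17.4, and a weak 3′-UTR pair had 2.61 and 1.66 (0.65).

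Of 6 other subunits of acid-sensing and epithelial sodium channels, 3 had a peak in CCI and 4 in sham, and none had a row in the table of differential peaks. *Scnn1a* had a 3′-UTR peak of 300 bp with the same borders in both lists, at 79.7 in CCI and 33.1 in sham (log2 ratio 1.27). *Scnn1b* had 48.1 and 38.8 (0.31), over a span that also holds *Cog7* in RefSeq. The acid-sensing subunits of this list formed no pair. *Asic4* had highest peaks of 3.41 in CCI and 19.8 in sham at different places, and *Asic5* had none. *Asic3* had a peak in sham only, at 10.5 over 121 bp (peak p of 5.5e-05). RefSeq also places *Cdk5* over those bases, so the gene of that peak is uncertain.

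Of 5 other P2X receptors, 2 had a peak in both lists and *P2rx1*, *P2rx2* and *P2rx3* in neither. *P2rx5* had a row in the table of differential peaks, with 5.21 over 420 bp in CCI and 9.78 over 899 bp in sham (log2 ratio -0.91). Like *P2rx7*, it had a longer and stronger 3′-UTR peak in sham. *P2rx6* had 2 pairs in its 3′-UTR, 1 at 4.56 in CCI and 4.07 in sham (0.16) and a weaker 1 at 1.54 and 2.44 (-0.66).

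Of 17 other purinergic genes, 10 had a peak in CCI and 9 in sham. *Adora1*, the inhibitory adenosine receptor, had the highest 3′-UTR peak, at 91.0 in CCI and 98.6 in sham, over bases that *Mybph* also covers in RefSeq. Its 5′-UTR pair had 1.83 over 181 bp in CCI and 6.63 over 630 bp in sham (log2 ratio -1.86). These were the 2 of its 7 pairs that were lower in CCI, and the other 5, all in the 3′-UTR, ran from 0.08 to 0.27, so that the median of the gene was 0.22. *Adora1* had 2 rows in the table of differential peaks. Its 5′-UTR pair and a 3′-UTR pair of 6.76 in CCI and 6.4 in sham (0.08) each overlapped such a row. *Panx1*, which releases ATP from cells, had 23.5 in CCI and 13.9 in sham at its highest peak (0.76), and its other pairs had log2 ratios of 0.43 and -0.11.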

How the data were processed

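The 4 libraries of the series, an IP and an input for CCI and for sham, gave 3 deposited tables, all of which were used. The paper names Cutadapt, bowtie and MACS2, whereas the submitters' processing notes name fastp, HISAT2, HOMER and the build GRCm38. Both name ChIPseeker, and the column names are those of exomePeak. Versions are not given in the sources used here, nor is whether strand was used in peak calling, although the libraries were made by the dUTP method.

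For each peak the authors deposited a ratio, the fold enrichment of IP over its input. Its deposited p-value tests IP against input, and the deposited log10 false discovery rate was handled as a score. The deposited log2 fold change, differential p-value and false discovery rate of CCI against sham are the authors' own comparison and were not used, so only the position, name and fold enrichment of differential rows were taken.

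Peaks were compared by exonic blocks on the same chromosome. The tables give the strand of the named gene and not of the peak, so the strand was used only in an alternative, although the plan named it. Pairs were best mutual partners by the shared share of bases, and a fold change past 2 counted as a call. Fold enrichments rest on different inputs and borders in each list. Gene names were matched to RefSeq (GRCm38.p6), where 12526 of 12545 gene IDs (99.8%) lay over the gene of that symbol. The search of the peaks for the m6A motif was not run, since a genome was not used here, and only promoter windows were searched. The pairing was tested on simulated lists in which each peak had at most a single partner, of the same length. Split stretches such as those of *Trpm3*, *Asic2* and *P2rx7* were not covered.

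The 10 genes, the wider list and the markers were chosen with earlier results of these data known. All 10 genes were named, and from the wider list those with a differential row and the 2 with the highest fold enrichment in each family. *Trpv1*, *Trpa1*, *Trpv4*, *P2rx1*, *P2rx2*, *P2rx3*, *Asic3*, *Asic4*, *Asic5*, *P2ry14*, *Tssc4* and the genes sharing a span with a peak were named after their values were seen. Alternatives covered the threshold of the peaks, the overlap, the unit and the centring, and 2 were added after seeing the data (strand, joined sites). No p-value between CCI and sham was computed. Scripts ran in Python 3.11.15 with matplotlib 3.10.9, scipy 1.17.1, pandas 2.3.3 and numpy 2.4.6.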

Additional observations from a re-analysis of the deposited data

How the results depend on the processing

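Of 33 alternative values computed, 28 stayed close to the value reported and 5 moved by over 1.5 times. Of the 28, 11 are single ratios under centring, which shifted each alike by 0.03 and so could hardly change a sign. CCI peaks of the channel genes without a sham partner numbered 7 instead of 4 when 50% of both peaks had to overlap, and 6 with matching only on the same strand of the named gene. Pairs past the threshold numbered 5 at a log2 ratio of 0.5 (41.5% of all pairs pass it), 0 on the same strand, and 2 with overlapping peaks joined into sites, instead of 1. For joined sites, the share over the whole series is not given here. By overlap whatever the name, 2 differential rows in place of 1 covered a peak of these genes, both at *Asic2*. The median log2 ratio ran from -0.27 to -0.19. Only the strand and the joined sites were chosen after seeing the data. No paired analysis was possible because CCI and sham had a single IP and a single input library each. The depth is unknown, so weak peaks found in 1 list only cannot be told from peaks that fell just below calling in the other.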
